A study of Mus musculus with 2 samples.

Results

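Liver cells whose droplets held messenger RNA of both Siglech and Cd209a were examined by droplet single-cell RNA sequencing. They were selected on the measured counts of these genes: a cell barcode was a member if it had at least 1 unique molecular identifier (UMI, 1 counted RNA molecule) of Siglech and at least 1 of Cd209a, and 0 UMIs of the B cell gene Cd79a, the T cell gene Cd3e and the neutrophil gene S100a8. This gave 182 double-positive cells among 20753 barcodes that passed a quality filter, with no fewer than 500 UMIs or 300 genes and a mitochondrial share under 20%. They were set beside 447 Siglech-only cells and 247 Cd209a-only cells, which passed the same lineage exclusion. Because Siglech, Cd209a and the 3 lineage genes chose the cells, their own levels are given as a description and were not tested.

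The tissue was whole mouse liver in which carbon tetrachloride (CCl4), a liver toxin, had induced fibrosis. One library came from mice that also received IPA, named in the study's title as indole propionic acid, a gut-derived metabolite (CCl4+IPA), and the other from mice given CCl4 alone, so that both groups carried CCl4 injury. The number, strain, sex and age of the animals, the doses and the times are not given in the sources used here. Cells were released with collagenase and papain, freed of red and dead cells, and not sorted by any marker.

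The CCl4+IPA library kept 10459 barcodes with a median of 2772 UMIs, and the CCl4 library kept 10294 with a median of 3195 UMIs. The median mitochondrial share was 1.78% in the CCl4+IPA library and 3.52% in the CCl4 library. With 1 library per group, a difference between CCl4+IPA and CCl4 compares 2 libraries and has no replicate check. All intervals are exact 95% intervals that cover counting error only. The libraries shared 22 barcode sequences.

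Plasmacytoid dendritic cells sense viral nucleic acids through endosomal Toll-like receptors and secrete type I interferon. In the mouse they carry Siglec-H, the surface receptor encoded by Siglech, and depend on the transcription factor encoded by Tcf4. Conventional dendritic cells instead load peptides on MHC class II molecules and show them to CD4+ T cells. Cd209a, a C-type lectin related to human DC-SIGN, is typical of type 2 conventional dendritic cells and of monocyte-derived cells, and cells that share features of both lineages have been described as transitional dendritic cells.

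Most double-positive cells carried the plasmacytoid programme together with a little Cd209a, and a smaller number carried a class II programme together with a trace of Siglech. Siglech had at least 10 UMIs in 54 of 62 double-positive cells of the CCl4+IPA library and in 87 of 120 of the CCl4 library. It had exactly 1 UMI in 6 CCl4+IPA cells and in 17 CCl4 cells, and 2 to 9 UMIs in the remaining 2 and 16. The median was 20 Siglech UMIs per cell in both libraries, with highest values of 62 in CCl4+IPA and 46 in CCl4. Cd209a was much sparser, with a median of 1 UMI and a highest value of 8 in CCl4+IPA, and a median of 2 and a highest value of 19 in CCl4.

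At the edge of the membership rule, 1 UMI of Cd209a made the cell a member in 40 of 62 CCl4+IPA cells and in 40 of 120 CCl4 cells. Both genes stood at 1 UMI in only 2 cells of each library, and both had at least 2 UMIs in 18 CCl4+IPA cells and 65 CCl4 cells. Just outside the rule lay the Siglech-only and Cd209a-only cells, with 0 UMIs of the other gene. Before the lineage exclusion, 98 CCl4+IPA barcodes and 197 CCl4 barcodes held both genes. The exclusion removed 36 and 77 of them, of which 31 in CCl4+IPA and 64 in CCl4 held S100a8. A single S100a8 UMI was all that 25 of the 31 CCl4+IPA barcodes and 38 of the 64 CCl4 barcodes held of that gene.

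The number of Siglech UMIs separated cells that differed in genes the rule did not use. A plasmacytoid score, the share of a cell's UMIs in 27 plasmacytoid marker genes other than Siglech, had a median of 2.56% in CCl4+IPA and 2.33% in CCl4 among double-positive cells with at least 10 Siglech UMIs. Those medians were 0.131% and 0.120% in the double-positive cells with 1 Siglech UMI. A class II score, the share of UMIs in Cd74, H2-Aa, H2-Ab1 and H2-Eb1, ran the other way. It had medians of 0.978% in CCl4+IPA and 0.950% in CCl4 at 10 or more Siglech UMIs, and of 4.32% and 5.14% at 1 Siglech UMI.

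Siglech-only cells with at least 10 Siglech UMIs had medians of 2.87% in CCl4+IPA and 2.45% in CCl4 for the plasmacytoid score, and 1.01% and 0.951% for the class II score. Cd209a-only cells had 0.156% in CCl4+IPA and 0.126% in CCl4 for the plasmacytoid score, and 4.94% and 5.03% for the class II score. The double-positive cells thus lay at the positions of the single-positive populations, and few lay between. A single double-positive cell, from CCl4, had both at least 1% plasmacytoid and at least 3% class II UMIs. It held 13786 UMIs in all, with 27 of Siglech, 3 of Cd209a and 12 of Ifitm3. Of the others, 57 CCl4+IPA cells and 95 CCl4 cells passed the plasmacytoid limit alone, 5 and 19 the class II limit alone, and 0 and 5 neither. Both limits were chosen after the values were seen.

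**Figure D1:**
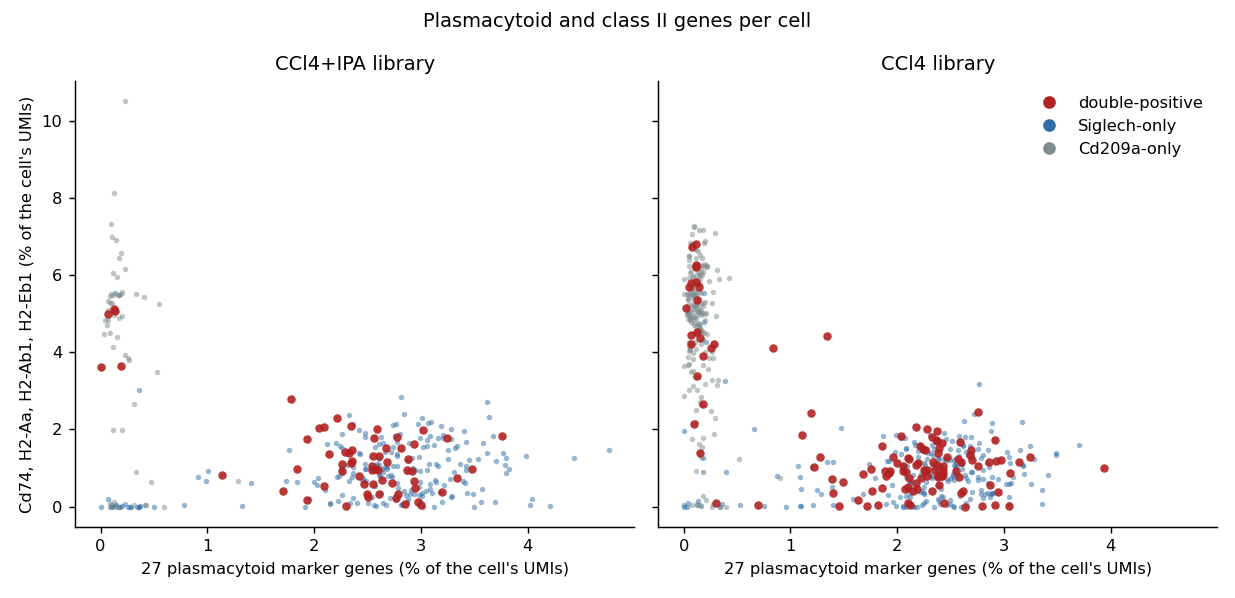
Each point is 1 cell, placed by the share of its UMIs in 27 plasmacytoid marker genes (horizontal, %) and in 4 MHC class II genes (vertical, %), in the CCl4+IPA and the CCl4 library. Double-positive cells lie mostly among the Siglech-only cells, at a median plasmacytoid share of 2.56% in CCl4+IPA and 2.33% in CCl4 for those with at least 10 Siglech UMIs, and a smaller number lie among the Cd209a-only cells.

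Ifitm3, which encodes an interferon-induced membrane protein that restricts virus entry, was not a gene of the double-positive cells as a whole. It had 0 UMIs in 49 of 62 double-positive cells of CCl4+IPA and in 77 of 120 of CCl4. Its summed level was 250 CPM (UMIs per 1000000 UMIs of the summed cells; interval 205 to 303) in CCl4+IPA and 602 CPM (553 to 654) in CCl4. Every double-positive cell with 1 Siglech UMI held Ifitm3, 6 of 6 in CCl4+IPA and 17 of 17 in CCl4, with summed levels of 1847 CPM and 2337 CPM. Among those with at least 10 Siglech UMIs, 6 of 54 cells in CCl4+IPA and 17 of 87 in CCl4 held it, at 25.0 CPM and 89.5 CPM. In Siglech-only cells Ifitm3 stood at 91.0 CPM in CCl4+IPA and 202 CPM in CCl4, and in Cd209a-only cells at 2906 CPM and 2573 CPM. The label of 1 dendritic cell type marked by Siglech, Cd209a and Ifitm3 therefore went against the cells that the rule finds, and they are called double-positive cells here.

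**Figure D2:**
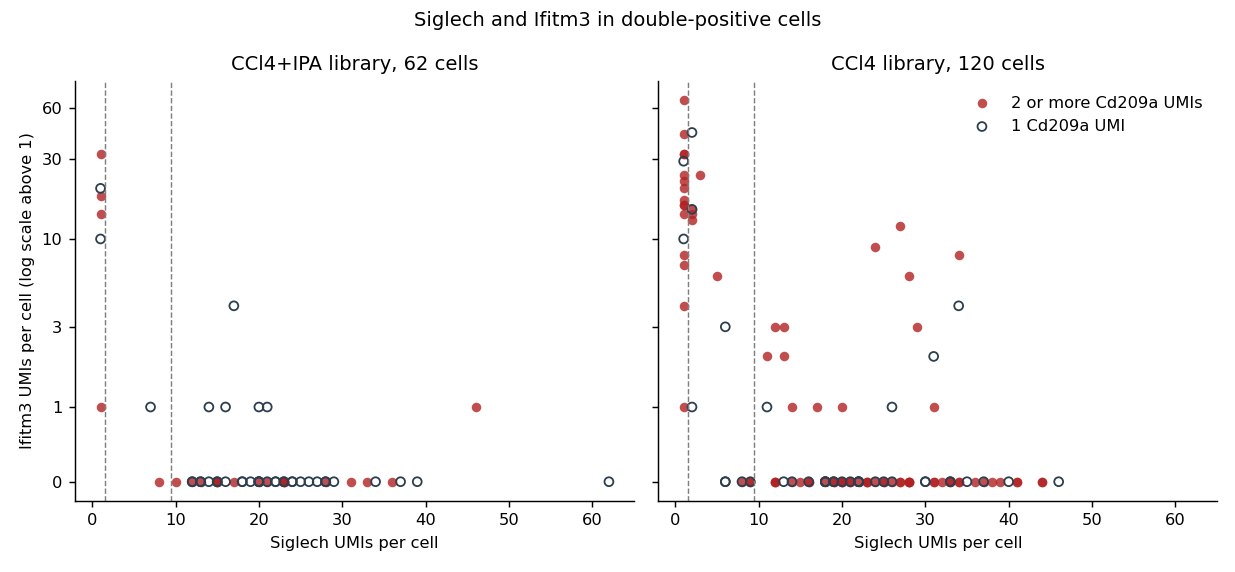
Each point is 1 double-positive cell, placed by its UMIs of Siglech (horizontal) and of Ifitm3 (vertical, log scale above 1), for 62 cells of CCl4+IPA and 120 of CCl4. Ifitm3 is high in cells with 1 Siglech UMI and mostly at 0 in cells with 10 or more, and cells with 1 Cd209a UMI (open points) and with 2 or more (filled points) occur on both sides.

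Several other genes outside the rule split along the same line, but not all did. Clec10a and Sirpa, markers of type 2 conventional dendritic cells, ran against it in CCl4+IPA. They stood there at 284 CPM and 250 CPM at 10 or more Siglech UMIs, and at 97.2 CPM and 77.7 CPM at 1. Klf4 and Itgax, on the same marker list, ran with it in CCl4+IPA, at 395 CPM and 77.8 CPM against 1322 CPM and 311 CPM. Tcf4 stood at 3172 CPM in CCl4+IPA and 2805 CPM in CCl4 in double-positive cells with at least 10 Siglech UMIs, and at 719 CPM and 492 CPM in those with 1. Ccr9, a receptor that guides plasmacytoid dendritic cells to the gut, stood at 1323 CPM and 1060 CPM in the cells with at least 10 Siglech UMIs, against 0 CPM in CCl4+IPA and 19.4 CPM in CCl4 with 1. Cox6a2, a cytochrome oxidase subunit, was at 0 UMIs in the cells with 1 Siglech UMI of both libraries, and at 1173 CPM in CCl4+IPA and 1012 CPM in CCl4 at 10 or more.

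The class II gene H2-Ab1 showed the reverse, with 1673 CPM in CCl4+IPA and 1889 CPM in CCl4 at 10 or more Siglech UMIs and 7678 CPM and 8272 CPM at 1. The protease inhibitor gene Cst3, high in conventional dendritic cells, stood at 998 CPM in CCl4+IPA and 1593 CPM in CCl4 at 10 or more, and at 5015 CPM and 4952 CPM at 1. The 16 CCl4 cells with 2 to 9 Siglech UMIs lay between these for the summed levels, with Ifitm3 at 1389 CPM and H2-Ab1 at 4593 CPM. Cell by cell, 9 of those 16 had a higher plasmacytoid than class II score and 6 the reverse. The 2 CCl4+IPA cells in that range had Ifitm3 at 125 CPM and H2-Ab1 at 877 CPM.

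**Figure D3:**
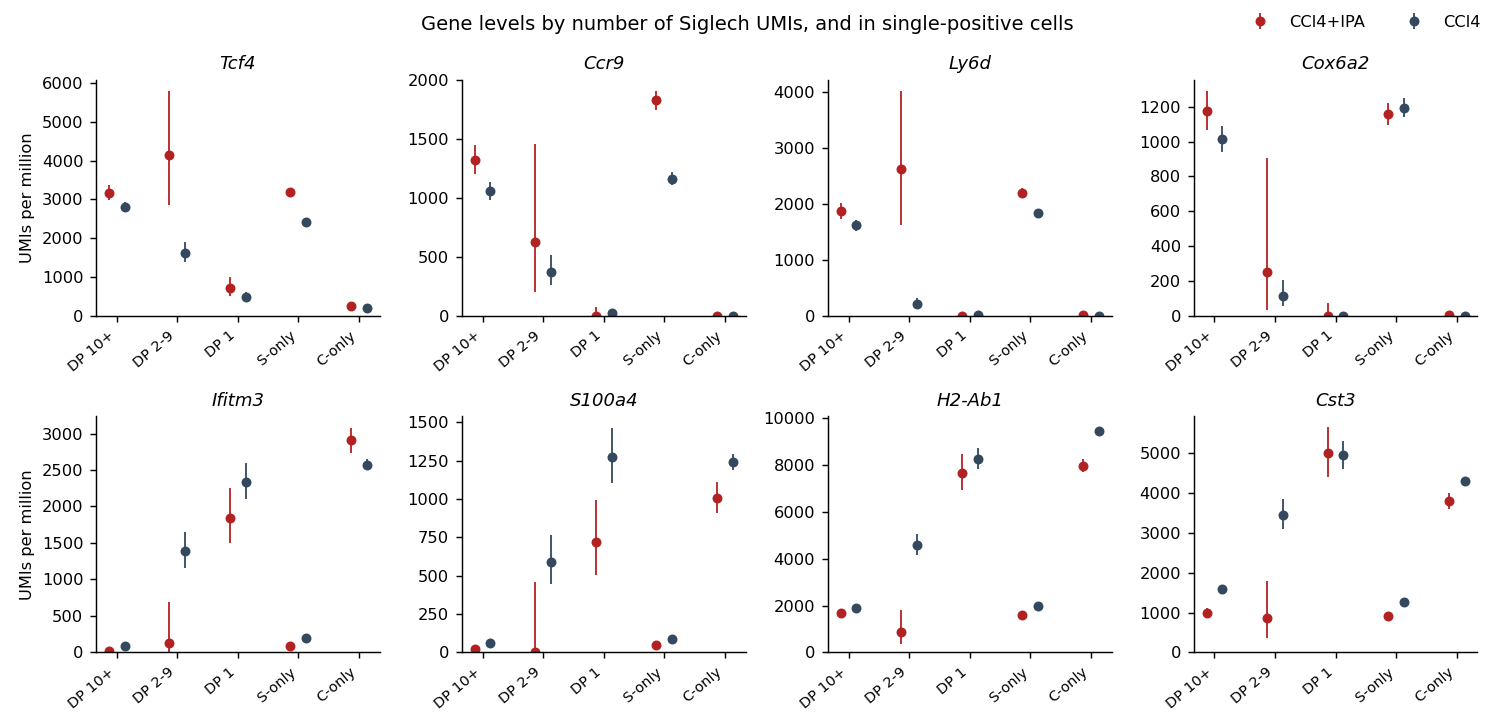
Summed levels (UMIs per 1000000, with exact 95% counting intervals) of genes in double-positive cells with 10 or more, 2 to 9 or 1 Siglech UMIs, then in Siglech-only (S-only) and Cd209a-only (C-only) cells, by library. Tcf4 and Ccr9 are high with 10 or more Siglech UMIs and in Siglech-only cells, and Ifitm3, H2-Ab1 and Cst3 are high with 1 Siglech UMI and in Cd209a-only cells.

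Clustering of all cells without the 5 genes of the rule placed the double-positive cells in the same way. A cluster led by Klk1, Cox6a2 and Ccr9 besides Siglech itself, called plasmacytoid dendritic cell-like from its markers, held 56 of 62 CCl4+IPA cells (90.3%) and 92 of 120 CCl4 cells (76.7%). A second cluster, led by Cd209a, Tnip3 and Tnfsf9, held 6 CCl4+IPA cells (9.68%) and 27 CCl4 cells (22.5%). Its best list was that of markers shared by conventional dendritic cells. It was left unnamed because the list of type 2 conventional dendritic cells had 2 markers among its leading genes, against 1 of the shared list. Those 2 were Tnip3 and Cd209a, a gene of the rule. One CCl4 cell fell in a macrophage and Kupffer cell-like cluster. Siglech-only cells were mixed too, with exactly 1 Siglech UMI in 27 of 211 CCl4+IPA cells and 25 of 236 CCl4 cells. The plasmacytoid-like cluster held 186 CCl4+IPA and 203 CCl4 Siglech-only cells, and the second cluster 3 and 19. Other clusters held the rest, among them 7 CCl4+IPA and 2 CCl4 cells in a natural killer cell or innate lymphoid cell 1-like cluster.

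The doublet check was made in several ways, since a droplet with 1 plasmacytoid and 1 conventional dendritic cell would also hold both genes. Double-positive cells had medians of 6651 UMIs in CCl4+IPA and 7751.5 in CCl4. Siglech-only cells had medians of 5661 in CCl4+IPA and 6705 in CCl4, and Cd209a-only cells 6618 and 9014. The double-positive medians were thus above those of Siglech-only cells in both libraries, and above those of Cd209a-only cells in CCl4+IPA alone. Scrublet, which scores each barcode against artificial doublets, called 2 of 62 double-positive cells in CCl4+IPA (3.23%) and 4 of 120 in CCl4 (3.33%), against 3.16% and 2.70% of all barcodes. It called 4 of 211 Siglech-only cells in CCl4+IPA and 9 of 236 in CCl4, and 0 Cd209a-only cells in both.

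Both genes were found in 1 barcode more often than independent detection would give. Without the lineage exclusion the 98 CCl4+IPA barcodes stood against 9.30 expected, a ratio of 10.5, and the 197 CCl4 barcodes against 40.8, a ratio of 4.83. Among barcodes free of the 3 lineage genes the ratios were 4.33 in CCl4+IPA and 2.10 in CCl4. Other pairs were counted without the lineage exclusion. For pairs from unlike lineages, Siglech or Cd209a with Cd79a, Cd3e or the natural killer cell gene Ncr1, the ratios ran between 0.234 and 0.477. With the neutrophil gene S100a8 they were nearer to 1, at 0.945 for Siglech and 0.967 for Cd209a in CCl4+IPA and at 1.21 and 1.08 in CCl4. With the macrophage gene C1qa they were 0.456 and 1.17 in CCl4+IPA, on 1 barcode each, and 1.10 and 0.901 in CCl4. With Xcr1, a gene of type 1 conventional dendritic cells, the CCl4 ratios were 1.98 for Siglech, on 4 barcodes, and 3.03 for Cd209a, on 5. In CCl4+IPA the Xcr1 ratios were 0.953 for Siglech, on 1 barcode, and 0 for Cd209a.

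Cd209a was also more frequent in Siglech-positive cells than in lymphocytes, which should lack it. It had a UMI in 22.7% of 273 lineage-free Siglech-positive cells in CCl4+IPA (median 5935 UMIs) and in 33.7% of 356 in CCl4 (median 6940 UMIs). B cells, with medians of 2459 UMIs in CCl4+IPA and 2903 in CCl4, had a Cd209a UMI in 0.339% and 1.02%. With every cell thinned to 1000 UMIs, which left out 6 CCl4+IPA and 9 CCl4 Siglech-positive cells and 19 and 9 B cells, the shares were 4.12% in CCl4+IPA and 12.4% in CCl4 for Siglech-positive cells. The thinned shares were 0.102% and 0.292% for B cells. Siglech had a UMI in 1.29% of B cells in CCl4+IPA and 1.48% in CCl4.

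Against Siglech-only cells, the double-positive cells had higher MHC class II, interferon-induced transmembrane and S100 genes and slightly lower plasmacytoid genes. UMIs were summed per library and population, and edgeR's quasi-likelihood test compared the 2 populations with the library as a block. At a Benjamini-Hochberg adjusted p under 0.05, 154 of 8383 genes were higher in double-positive cells (1.84%) and 71 were lower (0.847%), and the median log2 fold over all tested genes was -0.00. The fit has 1 residual degree of freedom and takes its spread from all genes together, so the p-values rest largely on counting error.

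Of 14 class II presentation genes tested, 10 were higher, 0 were lower, and the median log2 fold was 0.65. H2-Ab1 had 2395 CPM in CCl4+IPA and 3242 CPM in CCl4 in double-positive cells, and 1616 CPM and 1978 CPM in Siglech-only cells. Double-positive cells were higher in both libraries, with a log2 fold of 0.69 ± 0.07 (SE) and an adjusted p of 1.33e-17 by edgeR's quasi-likelihood test. The partner gene H2-Eb1 had a log2 fold of 0.97 ± 0.08, and Ciita, the master regulator of class II transcription, had 0.89 ± 0.17. Of 16 markers shared by conventional dendritic cells, 10 were higher, most of them class II genes, and the transcription factor gene Zbtb46 was among them at 11.9 CPM in CCl4+IPA and 17.4 CPM in CCl4, against 0 and 3.98 CPM in Siglech-only cells. Of 15 markers of type 2 conventional dendritic cells tested besides Cd209a, only 2 were higher and 0 lower, with a median of 0.12. Class II genes and Cd209a are both typical of conventional dendritic cells, and Cd209a chose the cells.

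Of 4 interferon-induced transmembrane genes tested, 3 were higher, with a median log2 fold of 1.41. Ifitm3 was higher by 1.58 ± 0.12 on the log2 scale (adjusted p of 8.07e-33 in edgeR's quasi-likelihood test). Ifitm2 was higher by 1.24 ± 0.18, and Ifitm6 by 2.01 ± 0.33. Ifitm genes are close copies of one another, so that reads may be split among them.

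Of 23 S100, annexin and actin-binding genes tested, 8 were higher and 0 lower, with a median of 0.20. S100a4, a calcium-binding protein of motile cells, stood at 105 CPM in CCl4+IPA and 322 CPM in CCl4 in double-positive cells, against 48.2 CPM and 86.9 CPM in Siglech-only cells (log2 fold 1.73 ± 0.16), and 1 cell held 50.0% of its double-positive UMIs in CCl4+IPA. Of 24 immediate early and dissociation stress genes, 10 were higher and 0 lower, with a median of 0.30. Atf3, a stress-induced transcription factor, stood at 685 CPM in CCl4+IPA and 512 CPM in CCl4 in double-positive cells, against 311 CPM and 143 CPM (1.52 ± 0.11).

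Further genes with large folds over Siglech-only cells were the myeloid genes Plbd1 (2.41 ± 0.24), Wfdc17 (2.16 ± 0.19), Il1b (1.99 ± 0.19), which encodes the cytokine interleukin 1 beta, Ms4a6c (1.41 ± 0.15) and Tmem176b (1.33 ± 0.20). Cd83, a maturation marker of dendritic cells, had 1.52 ± 0.21, and the transcription factor gene Cebpd had 1.47 ± 0.21. All 7 were higher in double-positive cells in both libraries, and in CCl4+IPA 1 double-positive cell held 41.9% of the Wfdc17, 37.0% of the Il1b, 35.7% of the Cebpd and 33.3% of the Plbd1 UMIs. For Plbd1 the values were 50.1 CPM in CCl4+IPA and 145 CPM in CCl4 in double-positive cells, and 14.3 CPM and 24.5 CPM in Siglech-only cells.

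Of 26 plasmacytoid marker genes tested, 7 were lower in double-positive than in Siglech-only cells and 0 higher, with a median of -0.15. They were Ccr9, Ly6d, Klk1, Cox6a2, Irf7, Smim5 and Rpgrip1. Ccr9 stood at 1147 CPM in CCl4+IPA and 814 CPM in CCl4 in double-positive cells, against 1830 CPM and 1165 CPM in Siglech-only cells (log2 fold -0.55 ± 0.08). Irf7, the regulator of interferon alpha genes, had -0.50 ± 0.14. Tcf4 had -0.06 ± 0.07 and did not pass the test, and nor did Irf8 (-0.15 ± 0.07), which encodes a transcription factor of dendritic cells, or the tetherin gene Bst2 (-0.14 ± 0.07).

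Of 11 proliferation genes tested, 4 were lower (Top2a, Stmn1, Birc5 and Hmgb2) and 0 higher, with a median of -0.25. The summed level of 10 cycling markers was 587 CPM in CCl4+IPA and 521 CPM in CCl4 in double-positive cells, against 854 CPM and 842 CPM in Siglech-only cells. The medians per cell were closer, at 449 CPM and 440 CPM in double-positive cells against 505 CPM and 458 CPM, and at 10 or more Siglech UMIs 0 of 9 proliferation genes were called. Of 29 interferon-stimulated genes, 2 were lower and 0 higher, with a median of -0.06, and of 15 class I presentation genes 1 was lower, with a median of -0.09. Ccl5, a chemokine of lymphocytes, had a log2 fold of -1.08 ± 0.14, and Sox4, a transcription factor of immature cells, -1.15 ± 0.21. The granzyme gene Gzma had -0.68 ± 0.18, but 95.1% of its UMIs in CCl4+IPA double-positive cells lay in 1 cell, and the fold was -0.075 in CCl4+IPA alone and -2.25 in CCl4 alone. The part of Siglech-only cells outside the plasmacytoid-like cluster in these folds was not tested. The remaining low genes by rank were Lztfl1 (-0.85 ± 0.20), Gpm6b (-0.80 ± 0.20), Pgam2 (-0.79 ± 0.19), Rpgrip1 (-0.74 ± 0.10), Txndc5 (-0.67 ± 0.14) and Hsd11b1 (-0.62 ± 0.19).

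The counts against Siglech-only cells were not stable. DESeq2 called 45 higher and 9 lower, edgeR without the library block called 0 and 0 (373 genes had an unadjusted p under 0.05 without the block and 944 with it), and membership after thinning to 1000 UMIs gave 3 and 6. Removing barcodes above the 95th percentile of UMIs of the single-positive cells gave 9 and 5. After thinning, Ifitm3 (-0.14), S100a4 (-0.51), Tmem176b (-1.31) and Sox4 (0.34) had log2 folds of the opposite sign.

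Because double-positive and Siglech-only cells both mixed cells of high and of low Siglech, the comparison was repeated among cells with at least 10 Siglech UMIs. This limit was chosen after the values were seen. The repeated comparison set 54 CCl4+IPA and 87 CCl4 double-positive cells against 147 and 174 Siglech-only cells. Median depths were 6418 UMIs in CCl4+IPA and 7694 in CCl4 for double-positive cells, and 6346 and 6959 for Siglech-only cells. Of 7652 genes, 24 were higher (0.314%) and 19 lower (0.248%) by edgeR's quasi-likelihood test at an adjusted p under 0.05, and 21 and 19 of these had also been called in all cells.

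Class II and interferon-induced transmembrane genes were not called in this set, while some myeloid genes still were. Those given in this paragraph each had over 20% of UMIs in 1 cell in some group. Ccr2, on the monocyte list and given below, had at most 13.4%. None of 13 class II genes was called, with a median log2 fold of 0.12, and H2-Ab1 had 0.12 ± 0.07. Of 22 S100, annexin and actin-binding genes, 1 was higher and 0 lower, with a median of 0.10. Of 22 immediate early and dissociation stress genes, 2 were higher and 0 lower, with a median of 0.10. Ifitm3 had -0.18 ± 0.23, and Tmem176b -0.37 ± 0.33, both of the opposite sign to the comparison of all cells, and neither passed the test. Wfdc17 stood at 16.7 CPM in CCl4+IPA and 61.1 CPM in CCl4 in double-positive cells, against 4.43 CPM and 15.9 CPM in Siglech-only cells (1.93 ± 0.40), with 56.1% of its CCl4 double-positive UMIs in 1 cell. Cd83 (1.62 ± 0.38), Cebpd (1.06 ± 0.27) and Ms4a6c (0.94 ± 0.24) were also higher. Lyz2, the lysozyme gene of myeloid cells, was called in the other direction: double-positive cells had 19.5 CPM in CCl4+IPA and 46.2 CPM in CCl4, against 6.65 CPM and 7.16 CPM in Siglech-only cells (2.31 ± 0.47), while among all cells it was lower in double-positive cells (-1.16 ± 0.19), at 23.9 CPM in CCl4+IPA and 85.7 CPM in CCl4 against 118 CPM and 159 CPM. A single Siglech-only cell held 90.2% of the Siglech-only Lyz2 UMIs in CCl4+IPA and another held 89.6% in CCl4. Without these cells the Siglech-only levels were 11.7 CPM in CCl4+IPA and 16.7 CPM in CCl4, below the double-positive levels. At 10 or more Siglech UMIs, 1 CCl4 cell held 58.1% of the double-positive Lyz2 UMIs. Of 26 plasmacytoid genes, 5 were lower: Klk1, Cox6a2, Ly6d, Ccr9 and Rpgrip1.

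Other calls in this set rested on 1 cell to a larger extent. Apoe had a log2 fold of 2.73 ± 0.19, but 77.7% of its UMIs in the CCl4 double-positive cells with at least 10 Siglech UMIs came from 1 cell, and 1 cell held 93.1% of the Iigp1 UMIs in CCl4+IPA. With genes kept only where no cell held 20% or more of the UMIs and both libraries had the same sign, 6 were higher and 11 lower. The higher ones were Ccr2, Fxyd5, Junb, Timm10b, Klrd1 and Cst3. The lower ones were Klk1, Cox6a2, Ly6d, Rgs1, H2aj, Ccr9, Rpgrip1, Txndc5, Pgam2, Ralgps2 and Irs2.

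Ccr2, the chemokine receptor of inflammatory monocytes, stood at 270 CPM in CCl4+IPA and 210 CPM in CCl4 in double-positive cells, against 102 CPM and 162 CPM in Siglech-only cells. It was higher in both libraries, by 0.79 ± 0.15 on the log2 scale (adjusted p of 5.07e-05 in edgeR's quasi-likelihood test). Cst3 stood at 998 CPM in CCl4+IPA and 1593 CPM in CCl4, against 900 CPM and 999 CPM (0.46 ± 0.08). Junb, a subunit of the AP-1 transcription factor, had 0.59 ± 0.09. Fxyd5, a regulator of the sodium pump, had 0.60 ± 0.13.

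In the same set Ccr9 stood at 1323 CPM in CCl4+IPA and 1060 CPM in CCl4 in double-positive cells, against 2025 CPM and 1285 CPM in Siglech-only cells (-0.43 ± 0.08). Ly6d, a lymphoid surface gene carried by plasmacytoid precursors, had -0.36 ± 0.07, and Rpgrip1 -0.56 ± 0.10. These 11 lower genes were lower in double-positive cells in both libraries. Levels of Siglech itself were held above the same limit in both populations and were not compared.

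**Figure D4:**
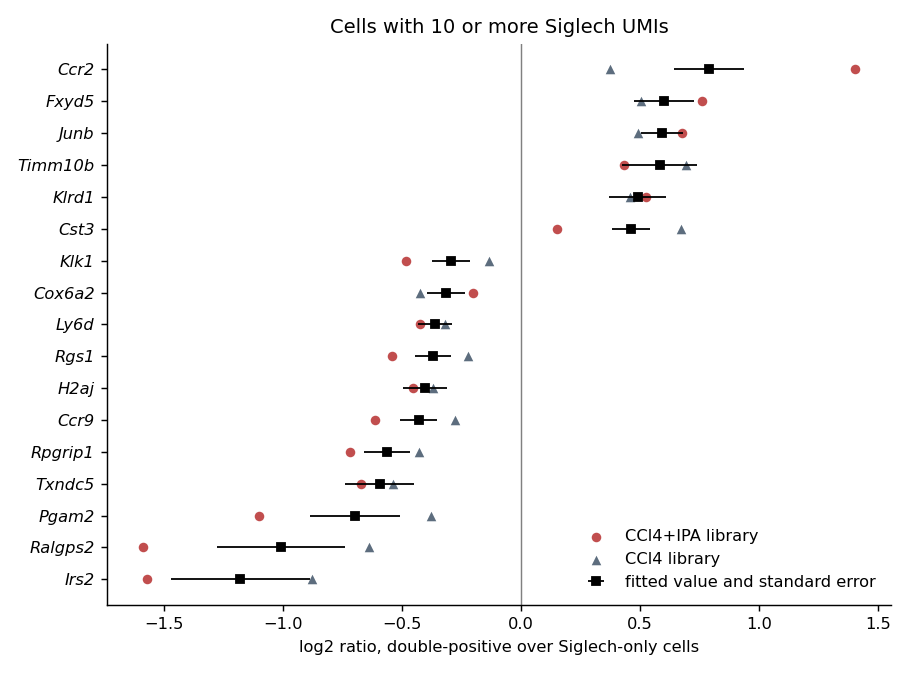
Log2 ratio of double-positive over Siglech-only cells among cells with at least 10 Siglech UMIs, for genes called by edgeR in which no cell held 20% or more of the UMIs and both libraries agreed in sign. Squares are fitted values with standard errors and other points are the ratios in the CCl4+IPA and CCl4 libraries; 6 genes lie above 0 and 11 below, with Ccr2 at 0.79 and Ccr9 at -0.43.

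Against Cd209a-only cells, the double-positive cells had far higher plasmacytoid genes and lower class II, interferon-induced transmembrane and monocyte genes. By edgeR's quasi-likelihood test at an adjusted p under 0.05, 1049 of 7263 genes were higher (14.4%) and 1143 lower (15.7%), with a median log2 fold of 0.01. Of 26 plasmacytoid marker genes tested, 24 were higher and 0 lower, with a median of 4.04, also with the 1 gene absent from Cd209a-only cells at its lower bound. Siglech, itself a plasmacytoid marker, chose the double-positive cells.

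Tcf4 stood at 2889 CPM in CCl4+IPA and 2294 CPM in CCl4 in double-positive cells, against 243 CPM and 197 CPM in Cd209a-only cells (log2 fold 3.41 ± 0.13). Irf8 stood at 3779 CPM in CCl4+IPA and 2560 CPM in CCl4, against 127 CPM and 57.9 CPM (5.08 ± 0.16). Spib, a transcription factor of plasmacytoid dendritic cells, had 4.14 ± 0.22, and Tlr7, the endosomal receptor for single-stranded RNA, had 3.58 ± 0.27. Each was higher in double-positive cells in both libraries.

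Several of the highest genes had no UMI in Cd209a-only cells, so that only a lower bound of the fold can be given, from a floor of 3 UMIs per library. Dntt, the enzyme that adds bases to rearranging antigen receptor genes, was at 169 CPM in CCl4+IPA and 127 CPM in CCl4 in double-positive cells, at least 21.9-fold higher in CCl4+IPA and at least 73.9-fold higher in CCl4. Atp2a1, a calcium pump gene, was at least 14.2-fold higher in CCl4+IPA and at least 60.6-fold higher in CCl4. The cadherin gene Cdh5, otherwise an endothelial marker, was at least 15.1-fold higher in CCl4+IPA and at least 54.3-fold higher in CCl4, and Klk1b27 was at least 25.2-fold higher in CCl4+IPA and at least 90.9-fold higher in CCl4. Klk1b27 belongs to a family of near-identical kallikrein genes among which reads may be split. Ccr9 was at least 148-fold higher in CCl4+IPA, and in CCl4 the ratio was 473 (161 to 2301), from 3 UMIs in Cd209a-only cells. Klk1 was at least 127-fold higher in CCl4+IPA, with a ratio of 379 (129 to 1845) in CCl4, and Mctp2 was at least 38.2-fold higher in CCl4+IPA, with a ratio of 413 (73.3 to 16380) in CCl4. Sema4b had a ratio of 50.8 (8.75 to 2043) in CCl4+IPA and was at least 59.3-fold higher in CCl4. Cox6a2 had ratios of 392 (69.9 to 15505) in CCl4+IPA and 653 (180 to 5406) in CCl4, and Ly6d 213 (72.7 to 1037) and 699 (238 to 3394). Each of these ratios rests on 1 to 3 UMIs in Cd209a-only cells.

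All 15 class II presentation genes tested were lower in double-positive than in Cd209a-only cells, with a median of -1.40. H2-Ab1 stood at 2395 CPM in CCl4+IPA and 3242 CPM in CCl4, against 7965 CPM and 9464 CPM (-1.78 ± 0.10). All 4 interferon-induced transmembrane genes tested were lower, with a median of -2.75, and Ifitm3 had -2.86 ± 0.24. Of 17 markers shared by conventional dendritic cells, 16 were lower and 1 higher. Of 15 markers of type 2 conventional dendritic cells, 9 were lower and 2 higher, with a median of -0.67. Of 34 interferon-stimulated genes, 21 were lower and 9 higher, with a median of -1.14, while of 15 class I presentation genes 5 were higher and 0 lower, with a median of 0.13.

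The lowest genes by rank were myeloid. Lyz2 had a log2 fold of -4.71 ± 0.31, with 23.9 CPM in CCl4+IPA and 85.7 CPM in CCl4 in double-positive cells against 1787 CPM and 1243 CPM in Cd209a-only cells. The chemokine gene Cxcl2 had -4.64 ± 0.31, the lectin genes Clec4a3 and Clec4b1 -4.18 ± 0.35 and -3.95 ± 0.27, and the receptor gene Gpr141 -4.02 ± 0.30. Tnip3, an inhibitor of NF-kappaB signalling, had -3.95 ± 0.24, and Csf1r, the receptor for macrophage colony-stimulating factor, -3.72 ± 0.24. The chemokine genes Cxcl16 and Ccl9 had -3.67 ± 0.37 and -3.58 ± 0.32, and Il1b -3.53 ± 0.25. Of 13 proliferation genes tested, 12 were lower, with a median of -2.11. The summed level of the 10 cycling markers was 1643 CPM in CCl4+IPA and 1440 CPM in CCl4 in Cd209a-only cells, but the median per cell was 424 CPM and 483 CPM, close to the double-positive medians given above.

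A list of 30 genes described for transitional dendritic cells, besides the genes of the rule, gave no single direction. Against Siglech-only cells, 11 of 26 tested were higher and 3 lower, with a median of 0.34. Against Cd209a-only cells, 8 of 27 were higher and 18 lower, with a median of -1.39. Axl, a receptor kinase used to recognise such cells in man, had 2.39 CPM in CCl4+IPA and 10.9 CPM in CCl4 in double-positive cells. Its level was 1.78 CPM in CCl4+IPA and 1.33 CPM in CCl4 in Siglech-only cells, and 72.3 CPM and 88.8 CPM in Cd209a-only cells.

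Few genes set the double-positive cells apart from both single-positive populations. Of 7016 genes tested against both, 4 were higher than in each (0.057%) and 12 lower than in each (0.171%), while 131 were higher than in Siglech-only and lower than in Cd209a-only cells and 33 the reverse. Cd209d, a near relative of Cd209a in the same lectin family, had the largest fold over Cd209a-only cells of the 4. It stood at 160 CPM in CCl4+IPA and 278 CPM in CCl4 in double-positive cells, against 99.9 CPM and 141 CPM in Siglech-only and 49.1 CPM and 17.2 CPM in Cd209a-only cells. Cd209d differed by 0.92 ± 0.14 from Siglech-only and by 3.11 ± 0.36 from Cd209a-only cells, and reads may be shared with Cd209a, which chose the cells. The iron storage gene Fth1 was the other abundant one, at 6706 CPM in CCl4+IPA and 6167 CPM in CCl4, and its folds were 0.24 ± 0.07 and 0.68 ± 0.10. Iigp1, with the single cell described above, and Cd200r1, an inhibitory receptor gene at 74.0 CPM in CCl4+IPA and 61.9 CPM in CCl4 in double-positive cells, were the remaining ones.

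Among the 12 genes below both were Lyz2, Ccl5, the chromatin gene Hmgb2 and the interferon-stimulated gene Ifi27l2a, and Lyz2 was below Siglech-only cells only with the 2 cells described above. For Ccl5, 1 Cd209a-only cell held 50.3% of that population's UMIs in CCl4+IPA. Without the top cell of each population, Ccl5 there stood at 190 CPM in Cd209a-only and 185 CPM in double-positive cells. Hmgb2 stood at 293 CPM in CCl4+IPA and 230 CPM in CCl4 in double-positive cells, against 416 CPM and 368 CPM in Siglech-only and 519 CPM and 571 CPM in Cd209a-only cells. Its log2 folds were -0.56 ± 0.12 and -1.24 ± 0.16. DESeq2 left 1 gene above both and 0 below both, and edgeR without the library block 0 and 0.

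Markers of other cell types were detected in the double-positive cells. Of 11 B cell markers, 10 were detected in each library, with summed levels of 1403 CPM in CCl4+IPA and 1023 CPM in CCl4. The sums were 1509 CPM and 1164 CPM in Siglech-only cells, and 240 CPM and 224 CPM in Cd209a-only cells. The B cell gene Ms4a1 was at 0 in CCl4+IPA and Pax5 at 0 in CCl4 in double-positive cells. Of 14 macrophage and Kupffer cell markers, 3 were detected in CCl4+IPA and 9 in CCl4, with summed levels of 40.6 CPM and 429 CPM, of which Apoe made up 342 CPM in CCl4, and the Kupffer cell genes Clec4f and Vsig4 were at 0 in both libraries. Siglech-only cells had 42.8 CPM in CCl4+IPA and 96.9 CPM in CCl4 of these, and Cd209a-only cells 408 CPM and 135 CPM. Of 16 monocyte markers, 10 were detected in CCl4+IPA and 14 in CCl4, at 4203 CPM and 3430 CPM. Siglech-only cells had 3711 CPM in CCl4+IPA and 3161 CPM in CCl4 of these, and Cd209a-only cells 5736 CPM and 4541 CPM. Ly6c2, 1 of the 16, made up 2326 CPM of the CCl4+IPA sum and 1584 CPM of the CCl4 sum in double-positive cells. The part of such RNA in the differences was not tested.

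Double-positive cells made up 62 of 10459 cells in CCl4+IPA (0.593%, interval 0.455 to 0.759) and 120 of 10294 in CCl4 (1.17%, 0.967 to 1.39). The ratio was 0.509 (0.368 to 0.697), a share 1.97 times higher in CCl4. Siglech-only cells made up 2.02% in CCl4+IPA and 2.29% in CCl4, and Cd209a-only cells 0.507% and 1.88%. Within Siglech-positive cells, the share with Cd209a was 22.7% in CCl4+IPA and 33.7% in CCl4, and at 10 or more Siglech UMIs 26.9% and 33.3%. Cells were deeper in CCl4. With membership set after thinning to 1000 UMIs per cell, double-positive cells were 24 of 9842 in CCl4+IPA and 39 of 9692 in CCl4, a ratio of 0.606 whose interval of 0.349 to 1.03 includes 1. At 1000 UMIs the Cd209a share at 10 or more Siglech UMIs was 5.47% (2.76 to 9.58) in CCl4+IPA and 11.9% (8.21 to 16.4) in CCl4. The share of B cells with a Cd209a UMI was also lower in CCl4+IPA, at 0.339% against 1.02%, and its part in the difference was not tested. With at least 2 UMIs of each gene the shares of all cells were 0.172% in CCl4+IPA and 0.631% in CCl4.

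Within double-positive cells, ratios of CCl4+IPA over CCl4 lay mostly above 1 for plasmacytoid genes and below 1 for class II genes, but no gene of either list passed 2-fold, and the mixture of cells differed too. Cells with at least 10 Siglech UMIs were 54 of 62 in CCl4+IPA and 87 of 120 in CCl4. Of 6929 genes with enough UMIs to compare, 321 were more than 2-fold higher in CCl4+IPA with an interval that excludes 1 (4.63%) and 97 more than 2-fold lower (1.4%), with a median log2 ratio of 0.19 and 64.9% of ratios above 1. A single ribosomal RNA gene, Rn18s-rs5, took 1.28% of the UMIs in CCl4+IPA and 6.19% in CCl4, and near the same in Siglech-only cells, 1.31% and 6.71%.

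The ratio of CCl4+IPA over CCl4 was above 1 for 23 of 26 plasmacytoid genes, with a median log2 ratio of 0.40, and below 1 for 13 of 14 class II genes, with a median of -0.40. Among cells with at least 10 Siglech UMIs the medians were 0.20 for the plasmacytoid genes and -0.11 for 13 class II genes, beside 0.16 for all genes. H2-Ab1 had a ratio of 0.739 (0.687 to 0.794) in all double-positive cells and 0.886 (0.802 to 0.977) in those with at least 10 Siglech UMIs. Ifitm3 had ratios of 0.416 (0.334 to 0.513) and 0.280 (0.122 to 0.567).

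Beside the 64.9% of all genes, interferon-stimulated genes were above 1 for 19 of 26, with a median of 0.50, of which 3 passed 2-fold higher and 2 lower. Isg15, a ubiquitin-like protein, stood at 131 CPM in CCl4+IPA and 68.4 CPM in CCl4, a ratio of 1.92 (1.31 to 2.80). Class I presentation genes were above 1 for 14 of 15, but their median of 0.23 was near the 0.19 of all genes. At 10 or more Siglech UMIs they were above 1 for 13 of 15, with a median of 0.38 beside 0.16 for all genes. H2-K1 had a ratio of 1.60 (1.48 to 1.73) in all double-positive cells. Immediate early genes were above 1 for 17 of 23, with a median of 0.38, and at 10 or more Siglech UMIs the median was 0.65. Jun stood at 4354 CPM in CCl4+IPA and 3215 CPM in CCl4, a ratio of 1.35 (1.28 to 1.44).

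The largest ratios above 1 were for Iigp1 (20.0, 12.4 to 34.1) and Gzma (12.0, 6.88 to 22.4), and in each 1 CCl4+IPA cell held over 90% of the UMIs, namely 93.1% for Iigp1 and 95.1% for Gzma. Spread over more cells were Rnf19b (3.96, 2.58 to 6.16), a ubiquitin ligase gene found in 27 of 62 cells of CCl4+IPA and 29 of 120 of CCl4, and the receptor gene Adgrg5 (3.75, 2.28 to 6.27), found in 33 and 22. Ccl5 had a ratio of 3.15 (2.33 to 4.28), Tent5c 2.83 (2.08 to 3.86), Rgcc 2.74 (1.91 to 3.95), Gpr132 2.70 (1.81 to 4.04), Nfkbid 2.68 (2.03 to 3.56) and H1f0 2.56 (1.60 to 4.12). The ratio of each of these 8 was above 2 also at 10 or more Siglech UMIs. That of Ccl5 was below 1, at a log2 ratio of -0.46, without barcodes above the 95th percentile of UMIs, and that of Gzma was below 1, at -0.65, without Scrublet calls. All of these 8 genes but H1f0 were also higher in CCl4+IPA in Siglech-only cells, so these differences were not particular to double-positive cells. In Siglech-only cells Adgrg5 stood at 91.0 CPM in CCl4+IPA and 23.9 CPM in CCl4, Tent5c at 235 CPM and 82.3 CPM, and H1f0 at 58.9 CPM and 68.3 CPM.

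The lowest ratios were for Apoe (0.0977, 0.0528 to 0.166), in which 1 CCl4 cell held 76.5% of the UMIs, and Tnfsf9 (0.166, 0.0698 to 0.339), which encodes a ligand of a T cell costimulatory receptor. Rn18s-rs5 had 0.207 (0.202 to 0.213). Myeloid genes followed, with Ms4a6c at 0.316 (0.224 to 0.436), Ckb at 0.319 (0.180 to 0.534), S100a4 at 0.326 (0.232 to 0.448), Tmem176b at 0.332 (0.199 to 0.528) and Plbd1 at 0.345 (0.207 to 0.548). The linker histone gene H1f4 had 0.320 (0.173 to 0.553), and the heat shock gene Hspa1b, near-identical to Hspa1a, 0.340 (0.229 to 0.489). At 10 or more Siglech UMIs Tmem176b had 0.678 (0.261 to 1.58), and S100a4 0.303 (0.115 to 0.680). All of these genes were also lower in CCl4+IPA than in CCl4 in Siglech-only cells. There H1f4 stood at 46.4 CPM in CCl4+IPA and 146 CPM in CCl4, and Ms4a6c at 36.6 CPM and 129 CPM.

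**Figure D5:**
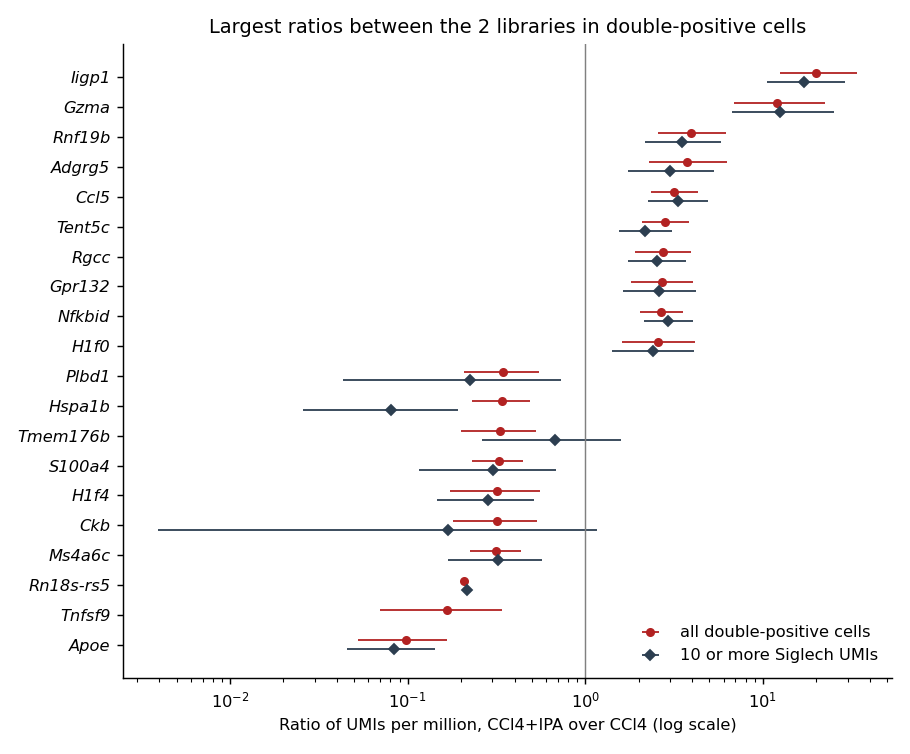
Ratio of UMIs per 1000000 in CCl4+IPA over CCl4 (log scale, exact 95% counting intervals) for the named genes with the highest and lowest ratios, in all double-positive cells and in those with at least 10 Siglech UMIs. Ratios run between 20.0 for Iigp1 and 0.0977 for Apoe, each set by 1 cell, and Tnfsf9 has no point at 10 or more Siglech UMIs because those CCl4+IPA cells held 0 UMIs of it.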

How the data were processed

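The labels describe single-cell libraries made with the 10x Genomics 3′ kit. The authors deposited raw UMI counts, written by Cell Ranger 7.1.0 per the file headers, and name mm9 as the genome build per the submitters' processing notes. Cell calling and the treatment of intronic reads are not given in the sources used here. Each of the 2 matrices holds 55357 genes. Genes were told apart by identifier, since 901 repeat a symbol.

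A barcode was kept if it had 500 UMIs and 300 genes or more, with less than 20% of UMIs from mitochondrial genes. Scrublet was run per library through scanpy 1.11.5, and its calls were left in the main results and removed in an alternative. Members and gene lists were chosen with earlier results of these data known. UMIs were summed per population and library, the 5 genes of the membership rule were left out of the tests, and edgeR 4.0.16 fitted a quasi-likelihood model with the library as a block, which pairs the populations of 1 library and leaves 1 residual degree of freedom. Benjamini-Hochberg adjustment ran over all genes tested. The edgeR step was also run, after the fits, on counts with known folds that were simulated from the summed counts of these data. Intervals at 95% are exact: Poisson for CPM, conditional binomial for ratios between summed counts, and Clopper-Pearson for shares of cells. No test was made between the libraries. Clusters came from scanpy (2000 variable genes, 30 components, 20 neighbours, resolution 1) without the 5 rule genes.

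Named genes are, against each single-positive population, the 10 largest changes in each direction among called genes with the same sign in both libraries, the genes above and below both, and the 10 highest and 10 lowest ratios between libraries. They needed 100 CPM in the higher group and 20 UMIs. Genes of mitochondria, ribosomal proteins, haemoglobins and antigen receptors, gene models without a symbol and sex-linked markers were left out. Cd200r1, and most genes named inside lists or at 10 or more Siglech UMIs, were chosen after their values were seen. Alternatives were DESeq2 1.42.0, its size factors, no low-count filter, no library block, a joint fit of 3 populations, 2 UMIs of each defining gene, removal of Scrublet calls, removal of barcodes above the 95th percentile of the single-positive cells' UMIs, under 10% mitochondrial UMIs, 7 more lineage genes, membership after thinning to 1000 UMIs and each library left out. Software was Python 3.11.15, numpy 2.4.6, scipy 1.17.1, pandas 2.3.3, R 4.3.3 and limma 3.58.1.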

Additional observations from a re-analysis of the deposited data

Results flagged for a closer look

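For some genes of the lists and the named set, the double-positive cells lay above a single-positive population in 1 library and below it in the other. The 6 described below are not all of them. H1f0, for instance, stood at 100 CPM in CCl4+IPA and 39.1 CPM in CCl4 in double-positive cells, against 58.9 CPM and 68.3 CPM in Siglech-only cells. These differences between CCl4+IPA and CCl4 were not tested, since each group has 1 library. Over Siglech-only cells, the ratio of Itgb7, an integrin subunit that guides cells to the gut, was 0.742 in CCl4+IPA and 1.26 in CCl4. The ratio of Jun was 1.09 in CCl4+IPA and 0.899 in CCl4, and that of the transcription factor gene Klf6 was 1.18 in CCl4+IPA and 0.821 in CCl4. Over Cd209a-only cells, Apoe had a ratio of 0.0972 in CCl4+IPA and 3.26 in CCl4, with 76.5% of its CCl4 double-positive UMIs in 1 cell. In CCl4+IPA 1 cell held 88.0% of the Cd209a-only Apoe UMIs, and without it Cd209a-only cells had 41.8 CPM against 33.4 CPM in double-positive cells. In CCl4, without its top cell, double-positive cells had 81.3 CPM against 105 CPM in Cd209a-only cells. The change of direction for Apoe thus rested on the 1 CCl4 double-positive cell, and the other cell changed only the size of the CCl4+IPA difference. Nfkbid, a regulator of NF-kappaB, had 1.58 in CCl4+IPA and 0.695 in CCl4. Tnf, the tumour necrosis factor gene, had 1.62 in CCl4+IPA and 0.548 in CCl4.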

How the results depend on the processing

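Against Siglech-only cells, 154 higher and 71 lower genes became 45 and 9 with DESeq2, 0 and 0 without the library block, and 98 and 30 in a joint fit of 3 populations. They became 13 and 7 with at least 2 UMIs of each defining gene, 9 and 5 without barcodes above the 95th percentile of UMIs, 27 and 8 with 7 more lineage genes, 3 and 6 after thinning to 1000 UMIs, and 24 and 19 at 10 or more Siglech UMIs, a setting chosen after seeing the data. Without the block, which pairs the populations of 1 library, 373 genes had an unadjusted p under 0.05, and 944 had one with it. Against Cd209a-only cells, 1049 and 1143 became 320 and 332 with DESeq2 and 577 and 576 with 7 more lineage genes, and the higher count became 691 after thinning. Genes above and below both, 4 and 12, became 1 and 0 with DESeq2, 7 and 20 without the low-count filter, 0 and 0 without the library block, 1 and 0 with 2 UMIs, 1 and 3 without deep barcodes, 1 and 2 with more lineage genes and 1 and 3 after thinning, and 1 was below both at 10 or more Siglech UMIs.

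The log2 ratio of the share in CCl4+IPA over CCl4, -0.98, was -1.88 with 2 UMIs of each gene and between -0.72 and -1.29 under the other settings. Co-detection over expectation, 4.33 in CCl4+IPA and 2.10 in CCl4, was 2.65 and 1.65 with 2 UMIs, 2.02 and 1.26 with more lineage genes, and 10.5 and 4.83 without lineage exclusion. Between libraries, 321 genes past 2-fold higher became 148 after thinning, and 97 lower became 39 after thinning and 166 without deep barcodes.

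Some log2 folds over Siglech-only cells changed sign. Lyz2 had 2.02 with 2 UMIs and 2.31 at 10 or more Siglech UMIs. With more lineage genes Klk1b27 had 0.032 and Dntt 0.080. After thinning S100a4 had -0.51, Ifitm3 -0.14, Tmem176b -1.31, Sox4 0.34, Cdh5 0.36, Mctp2 0.015 and Ccl9 -0.39. At 10 or more Siglech UMIs Ifitm3 had -0.18, Tmem176b -0.37, Gzma 0.62 and Klk1b27 0.045. With 1 library left out, Ccl9 ran between -0.46 and 0.39 and Gzma between -2.25 and -0.075 over Siglech-only cells, and Gzma between -0.84 and 0.20 over Cd209a-only cells, and Gzma had 0.042 over Cd209a-only cells without the block. For CCl4+IPA over CCl4, the log2 ratio of Gzma was -0.65 without Scrublet calls, -0.78 without deep barcodes and -0.046 with more lineage genes. That of Ccl5 was -0.23 with 2 UMIs, -0.46 without deep barcodes and -0.11 with more lineage genes. After thinning H1f0 had -1.35 and Tmem176b 0.24. Deep barcodes and thinned membership change which cells are members, and the cause of these changes was not tested. The 62 and 120 member cells limit what can be seen in CCl4+IPA and CCl4.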
